A study of Mus musculus with 10 samples.

Results

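Ligands and secreted antagonists of the transforming growth factor beta (TGF-beta) superfamily were followed in muscle with and without desmin. The 10 genes were chosen by name as the myostatin gene Mstn, the TGF-beta genes Tgfb1, Tgfb2 and Tgfb3, the activin subunit genes Inhba and Inhbb, the bone morphogenetic protein (BMP) family genes Gdf5 and Bmp4, and the follistatin genes Fst and Fstl3. All 10 members were found among the 54232 genes of the table, and all 10 were among the 14289 genes expressed highly enough to be tested. RNA came from the gastrocnemius, a calf muscle, of 5 homozygous desmin knock-out mice (Des -/-, strain B6J.129Sv-Destm1Cba/Cscl) and 5 wild-type mice (Des wt/wt, labelled with the same strain), all 3 months old. The knock-out is carried in the germline, so desmin was missing from all muscle of the body throughout life, and the controls were wild-type littermates per the study's methods. The methods of the study speak of RNA pooled from the muscles of a genotype, and the study also names the plantaris beside the gastrocnemius, but the table lists 10 mice separately, and every mouse was taken as 1 sample. The comparison asks how the transcripts of these signals and of their antagonists differ when muscle lacks desmin, the main intermediate filament protein of muscle fibers.

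The ligands of this family are secreted as dimers that bring type I and type II receptor kinases together, and the receptors phosphorylate SMAD proteins, which then enter the nucleus. Myostatin, activins and TGF-betas use SMAD2 and SMAD3, whereas BMPs and GDF5 use SMAD1, SMAD5 and SMAD9. In skeletal muscle, myostatin, a product of the fibers themselves, limits fiber size, BMP signals oppose this limit, and TGF-betas are known for driving matrix production by fibroblasts. Follistatin (Fst) and the follistatin-like protein encoded by Fstl3 bind and block myostatin and activins outside the cell.

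Of the 10 members, 7 had an entry among the RefSeq promoters (GRCm38.p6), among them Mstn, Tgfb2 and Inhba of the members called in the comparison. Mstn and Tgfb2 are shown because they differed in opposite directions under each alternative setting. Each run is the 250 bases before the annotated start, 5′ to 3′ on the strand of the gene, with capitals marking E-boxes, the CANNTG sites read by myogenic and other basic helix-loop-helix factors. Mstn lies on the forward strand at chr1:53061390-53061639 and Tgfb2 on the reverse strand at chr1:186705990-186706239.
Mstn: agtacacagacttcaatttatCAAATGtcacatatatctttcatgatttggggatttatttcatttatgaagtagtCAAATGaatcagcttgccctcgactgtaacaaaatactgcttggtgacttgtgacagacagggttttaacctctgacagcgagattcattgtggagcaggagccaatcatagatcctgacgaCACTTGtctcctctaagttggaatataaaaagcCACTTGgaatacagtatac
Tgfb2: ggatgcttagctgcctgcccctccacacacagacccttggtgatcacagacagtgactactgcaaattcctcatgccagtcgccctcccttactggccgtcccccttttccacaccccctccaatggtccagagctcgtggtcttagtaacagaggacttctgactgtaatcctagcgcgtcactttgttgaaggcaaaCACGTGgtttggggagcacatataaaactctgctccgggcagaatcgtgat
The Mstn window held 4 E-boxes, whose first bases lay 229, 174, 52 and 19 bases before the start, and the Tgfb2 window held 1, at 51 bases, while the Inhba window held none. An E-box was present in 66.2% of all 32851 promoter windows of this length. Both windows held the letters TATAAA, at 29 bases before the start in Mstn and at 31 in Tgfb2, which 12.4% of all windows held. Both also held the SMAD-box letters CAGAC or their reverse complement at 2 places, and 42.2% of all windows had at least 1 such match. The letters were searched on both strands, and no match overlapped another in these 2 windows. Of the 7 members with a window, 4 held an E-box, 4 held TATAAA and 3 held a SMAD-box match. The window of Fstl3, a member not called, held all of these kinds. Such matches describe the sequence and do not show binding.

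The table holds regularized log (rlog) values of DESeq2, a log2 measure adjusted for library size in which noisy values of a gene are pulled to its average. A difference in rlog understates the log2 fold change of counts, above all where reads were few, and the sequencing depth of each mouse is unknown. Des itself was lower in each knock-out mouse (11.76 to 11.89) than in any wild-type mouse (16.10 to 17.74), so each library carried the level of its label, and all 12 skeletal muscle markers were above the expression limit. Wild-type mouse 3 stood apart from the other mice. Its summed linear values reached 1.48 times the median mouse, against 0.949 to 1.06 in the others, and it correlated least with its own genotype (mean r = 0.982, the lowest of the 10). Counts of called genes in the lists are therefore also given without this mouse where they differ. All 10 libraries held Y-linked transcripts, and the columns differed from each other.

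Of the 10 members, 4 were higher and 1 was lower in desmin knock-out muscle at an adjusted p under 0.05 (limma, Benjamini-Hochberg adjustment over 14289 genes). Fst, Gdf5, Tgfb2 and Inhba rose and Mstn fell, while Tgfb1, Tgfb3, Inhbb, Bmp4 and Fstl3 did not pass. Among all tested genes, 7.7% were called higher and 5.99% lower, together 13.7%. In 3 members (Fst, Gdf5 and Tgfb2) all knock-out values lay above all wild-type values, and in Mstn they all lay below, whereas 7.45% and 6.97% of all tested genes were separated in these directions. The median difference of the 10 members was 0.31 on the log2 scale, against -0.0029 for all tested genes. Without wild-type mouse 3, also 4 members were called higher and 1 lower, with Tgfb3 in place of Inhba, and 17.4% of 14293 tested genes were called. Because the tissue is a mixture of fibers and other cells, fewer cells of a type and less RNA per cell cannot be told apart in any of these values.

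**Figure D1:**
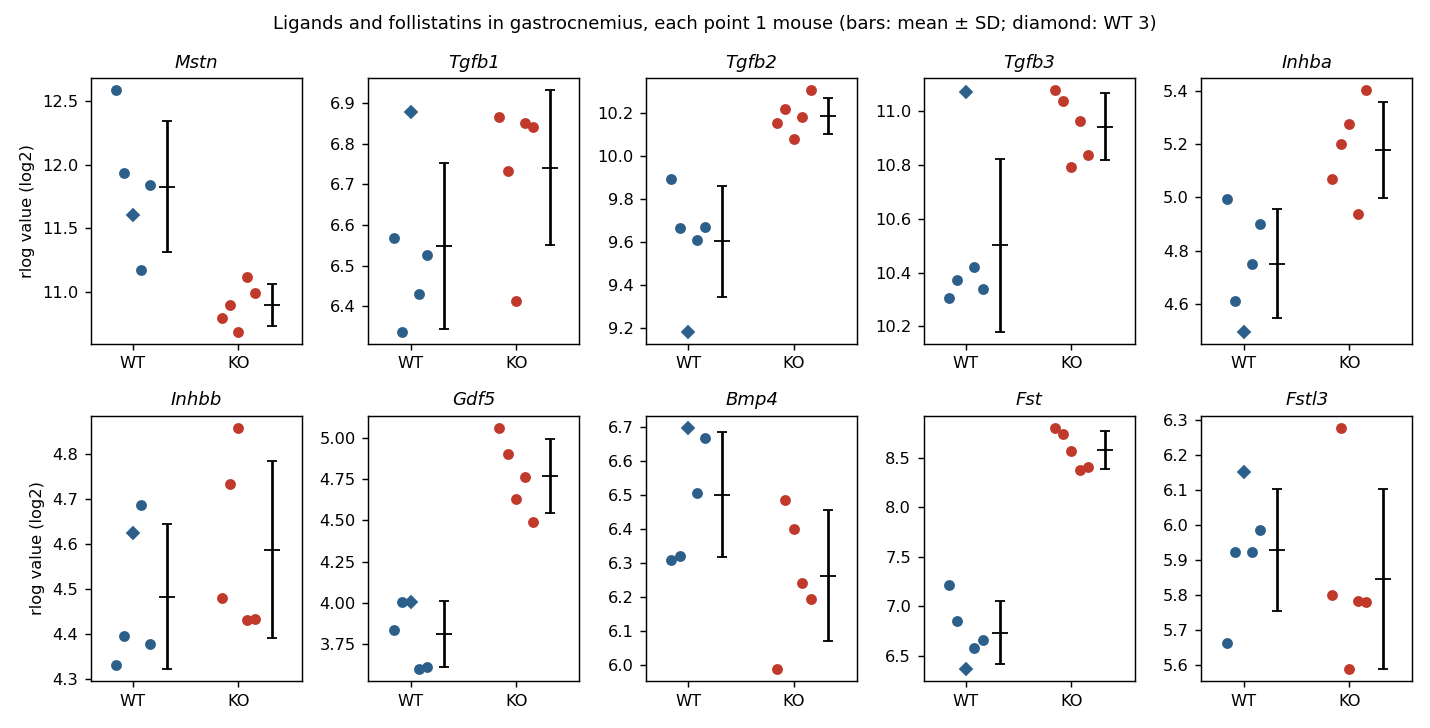
Values of the 10 members in each mouse, with the rlog value (log2) on the vertical axis of each panel and wild-type (WT, blue) and desmin knock-out (KO, red) mice side by side. Points are mice, black bars the mean ± SD of 5 mice, and the diamond is wild-type mouse 3. Fst, Gdf5, Tgfb2 and Mstn separate the genotypes without overlap, and in Tgfb3 the diamond (11.07) lies among the knock-out mice while the other wild-type mice lie between 10.31 and 10.42. The vertical axes differ between panels and do not start at 0.

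Fst, the gene of the main myostatin and activin antagonist, had the largest difference of the members. Its rlog values in knock-out mice 1 to 5 were 8.80, 8.74, 8.57, 8.38 and 8.41, and in wild-type mice 1 to 5 they were 7.21, 6.85, 6.37, 6.58 and 6.66. The lowest knock-out value was thus well above the highest wild-type value, and the wild-type mice were spread more widely than the knock-out mice. The means were 8.58 ± 0.19 (SD, n = 5) and 6.74 ± 0.32 (SD, n = 5), so that knock-out exceeded wild-type by 1.84 on the log2 scale (standard error, SE, 0.15, limma adjusted p = 3.8e-06), or 3.59-fold on the rlog scale. Leaving out any of the 10 mice gave differences from 1.75 to 1.96. By exact permutation p was 0.00794 for Fst, as for Gdf5, Tgfb2 and Mstn, and no smaller p is possible with 5 mice in each genotype. Fst (ENSMUSG00000021765) lies on the reverse strand of chromosome 13 of GRCm38 from 114452290 to 114458951. Fstl3 (ENSMUSG00000020325), whose product also binds activins and myostatin, did not pass. It averaged 5.85 ± 0.26 (SD, n = 5) without desmin and 5.93 ± 0.18 (SD, n = 5) with it, and the 95% interval of the log2 difference reached from -0.38 to 0.22 (limma adjusted p = 0.737). The highest and the lowest Fstl3 value of all 10 mice, were both those of knock-out mice (6.28 in mouse 2 and 5.59 in mouse 3).

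Mstn (ENSMUSG00000026100), the myostatin gene, fell. Knock-out mice 1 to 5 had rlog values of 10.80, 10.90, 10.69, 11.12 and 10.99, and wild-type mice 1 to 5 had 12.58, 11.94, 11.60, 11.17 and 11.84. The wild-type mice were spread more widely than the knock-out mice, and the lowest of them, mouse 4, lay only just above the highest knock-out mouse. The means of 10.90 ± 0.17 (SD, n = 5) and 11.83 ± 0.51 (SD, n = 5) differed by -0.93 (SE 0.20, limma adjusted p = 0.00704), so that the knock-out level was 0.525 times the wild-type level on the rlog scale. Without wild-type mouse 1, the highest, the difference was -0.74, and without wild-type mouse 4 it was -1.09. The adjusted p of Mstn stayed under 0.05 in all 18 alternative fits, with a range from 2.3e-05 to 0.0309. Mstn covers 53061640 to 53068079 of chromosome 1, with 3 exonic blocks, and starts 22.3 Mb from Des. Of the other members on this chromosome, Inhbb starts 44.1 Mb and Tgfb2 111 Mb from Des.

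Gdf11, which is not a member, encodes the closest relative of myostatin and was higher in knock-out muscle. Its values in knock-out mice were 10.60, 10.95, 11.28, 10.89 and 10.58, and in wild-type mice 9.74, 9.63, 9.70, 9.96 and 10.03. No knock-out mouse overlapped the wild-type mice, and the log2 difference was 1.05 (SE 0.14, limma adjusted p = 1.8e-04). No stretch of 50 bases of the Mstn or Gdf11 transcripts occurred in another gene.

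Of the TGF-beta genes, Tgfb2 (ENSMUSG00000039239, chromosome 1, 186622792 to 186705989, reverse strand) rose. Its knock-out values were 10.15, 10.22, 10.08, 10.18 and 10.30, and its wild-type values 9.89, 9.66, 9.18, 9.61 and 9.67. The knock-out mice lay within a narrow band above all wild-type mice. The means were 10.19 ± 0.08 (SD, n = 5) and 9.60 ± 0.26 (SD, n = 5), and their log2 difference was 0.58 (SE 0.12, limma adjusted p = 0.00488). The lowest value was that of wild-type mouse 3, and without it the difference was 0.48 (limma adjusted p = 9.2e-04). Tgfb3 (ENSMUSG00000021253, chromosome 12, 86056745 to 86079041, reverse strand) had knock-out values of 11.08, 11.04, 10.79, 10.96 and 10.84, and wild-type values of 10.31, 10.37, 11.07, 10.42 and 10.34. Here 4 wild-type mice lay close together below all knock-out mice, and wild-type mouse 3 lay between the knock-out mice. Over all mice the log2 difference was 0.44 (SE 0.14, limma adjusted p = 0.0503), just short of the threshold. Without wild-type mouse 3 it was 0.58 (SE 0.07, limma adjusted p = 1.5e-04), and the genotypes did not overlap. An adjusted p under 0.05 was also reached with sample weights, with the Y-linked covariate and, with that mouse kept at full weight, after quantile normalization (0.48, limma adjusted p = 0.019), so that 4 of 18 alternative fits called Tgfb3. Wild-type mouse 3 had the lowest sample weight (0.10) and the lowest mean of Y-linked transcripts (9.52, against 9.88 to 10.62 in the others). The fits with weights and with the covariate are therefore not separate from leaving that mouse out.

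Tgfb1 (ENSMUSG00000002603, chromosome 7, 25687002 to 25705077), the isoform best known from inflammation and fibrosis, overlapped between the genotypes. Knock-out values were 6.86, 6.73, 6.41, 6.85 and 6.84, and wild-type values were 6.57, 6.34, 6.88, 6.43 and 6.53. Wild-type mouse 3 was the highest of all 10 mice and knock-out mouse 3 the lowest of its genotype. The log2 difference was 0.19 (95% interval -0.09 to 0.47, limma adjusted p = 0.369), and only the fit with sample weights, which gives wild-type mouse 3 little weight, put it under 0.05 (0.34, limma adjusted p = 0.0163).

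Activins are dimers of the subunits encoded by Inhba and Inhbb. Inhba (ENSMUSG00000041324, chromosome 13, 16011851 to 16031621) had 5.07, 5.20, 5.28, 4.94 and 5.40 in knock-out and 5.00, 4.61, 4.50, 4.75 and 4.90 in wild-type mice. In 4 of 5 knock-out mice the value exceeded all wild-type values, and knock-out mouse 4 fell between the 2 highest wild-type mice. The log2 difference of 0.43 (SE 0.13, limma adjusted p = 0.0468) passed the threshold narrowly. It lost its adjusted p under 0.05 in 13 of 17 alternative fits (range 0.034 to 0.13), among them the fits without wild-type mouse 2 (0.103), 3 (0.0719) or 4 (0.0675) and without knock-out mouse 1 (0.0677), 2 (0.0935), 3 (0.0993) or 5 (0.13), although the difference was positive in each. Inhbb (ENSMUSG00000037035, chromosome 1, 119415465 to 119422248) averaged 4.59 ± 0.20 (SD, n = 5) without desmin and 4.48 ± 0.16 (SD, n = 5) with it, with overlapping mice and a 95% interval of the difference from -0.17 to 0.38 (limma adjusted p = 0.632). Inha, the gene of the inhibin subunit that turns activin dimers into inhibins, was higher by 0.52 (SE 0.14, limma adjusted p = 0.0257). The call was held in 12 of 18 alternative fits, and Inha starts 0.147 Mb from Des, the targeted gene.

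Gdf5 (ENSMUSG00000038259, chromosome 2, 155941023 to 155945367, reverse strand) encodes a BMP-type ligand that is known to rise in denervated muscle and to protect its mass. Its values were 5.06, 4.91, 4.63, 4.77 and 4.49 in knock-out and 3.84, 4.003, 4.004, 3.60 and 3.61 in wild-type mice. All knock-out mice lay above all wild-type mice. The means of 4.77 ± 0.22 (SD, n = 5) and 3.81 ± 0.20 (SD, n = 5) differed by 0.96 (SE 0.14, limma adjusted p = 3.9e-04), and with each mouse left out the difference lay between 0.89 and 1.03. Gdf5 lay near the expression limit of log2(10), where rlog shrinks differences most. Bmp4 (ENSMUSG00000021835, chromosome 14, 46383520 to 46390669, reverse strand) had values of 5.99, 6.49, 6.40, 6.24 and 6.20 in knock-out and 6.31, 6.32, 6.70, 6.51 and 6.67 in wild-type mice. The mice overlapped, and 3 of 5 knock-out mice lay below all wild-type mice. The log2 difference was -0.24 with a 95% interval from -0.51 to 0.04 (limma adjusted p = 0.249).

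**Figure D2:**
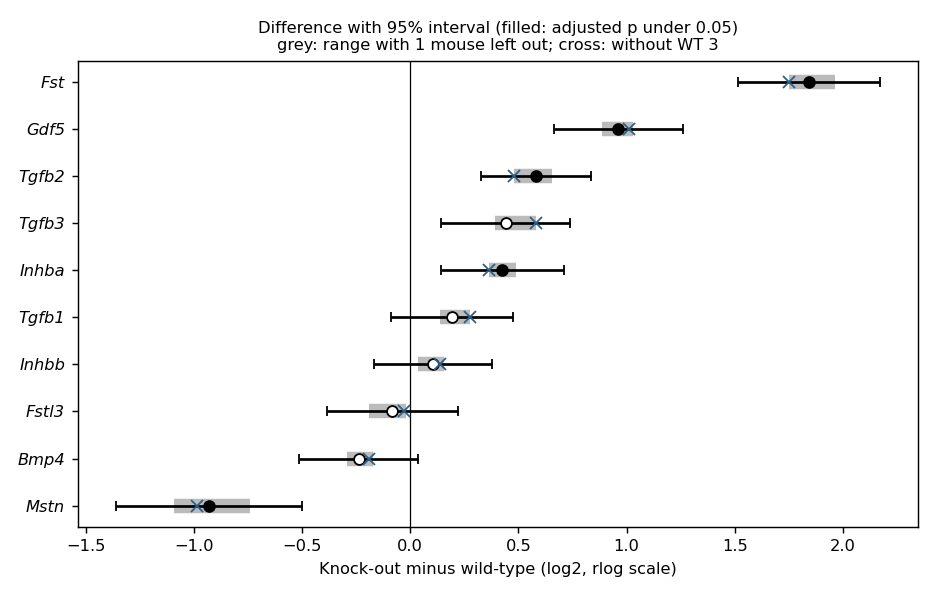
Knock-out minus wild-type difference of each member on the horizontal axis (log2, rlog scale), with genes on the vertical axis. Circles are the differences (filled where the adjusted p is under 0.05) with 95% intervals, grey bands the range when each mouse is left out in turn, and crosses the value without wild-type mouse 3. Fst (1.84) and Mstn (-0.93) lie at the ends, and for Tgfb3 the cross (0.58) lies to the right of the circle (0.44).

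Levels can be set side by side only after division by transcript length, here as the rlog value minus log2 of the exon length in kilobases. On this per-length scale Mstn was the highest of the members in wild-type muscle (10.39 ± 0.51, SD, n = 5), followed by Tgfb3 (8.74 ± 0.32, SD, n = 5), Tgfb2 (7.07 ± 0.26, SD, n = 5) and Bmp4 (5.33 ± 0.18, SD, n = 5). The values of these 4 genes did not overlap between neighbours, nor did those of Bmp4 and Fstl3 (4.64). Fstl3, Fst (4.54) and Tgfb1 (4.21) overlapped from each to the next, as did Gdf5 (2.60), Inhbb (2.39) and Inhba (2.08) below them, so that the order within these groups was not resolved. In knock-out muscle the per-length level of Mstn was 9.46 ± 0.17 (SD, n = 5) and that of Tgfb3 9.18 ± 0.12 (SD, n = 5), with overlapping mice. Fst, whose wild-type values overlapped those of Fstl3 and Tgfb1, reached 6.38 ± 0.19 (SD, n = 5) in knock-out muscle, between Tgfb2 (7.65) and Bmp4 (5.09) and without overlap with either.

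Several members share their position with another gene on the opposite strand. The libraries were made with a stranded kit, but whether reads were counted by strand is not given in the sources used here. For Gdf5, 39.2% of the 50-base stretches of its transcripts also belong to Gm15557, which is listed at 0 in all 10 mice. For Fstl3, 46.2% are shared with Prss57, whose rlog values lay below 0 in each mouse. If reads were not counted by strand, reads in these shared stretches may be missing from Gdf5 and Fstl3. Their places in the per-length order, that of Fstl3 below Bmp4 included, are therefore uncertain. For Tgfb3, 8.79% are shared with Gm37804 and Gm48008, whose values were at most -1.17 and 0.14. Tgfb3 also overlaps the end of Ttll5 over 5149 bases of the genome, but its transcripts share no 50-base stretch with those of Ttll5. Ttll5 had values from 7.26 to 8.06 with a log2 difference of -0.28 (limma adjusted p = 0.163), opposite in sign to that of Tgfb3. For Fst and Tgfb2, the shared parts made up 1.4% and 0.531% of the 50-base stretches. Gm47040, which overlaps Fst, had values of at most 0.27.

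The genes whose values ran most nearly in parallel with a called member over the 10 mice are given as a description. With Fst these were Npr3 (Pearson r = 0.990), Nin (0.989) and Runx1 (0.989), the last a transcription factor known to rise in denervated muscle. With Gdf5 they were Dusp4 (0.980), Myl12a (0.978) and Tiam2 (0.976), with Tgfb2 Fsd1l (0.985), Atp6ap2 (0.984) and Ccdc59 (0.982), with Mstn Hrasls (0.957), Tbc1d19 (0.957) and Mettl11b (0.955), and with Inhba Srsf2 (0.922) and Ufm1 (0.920). These correlations hold the difference between the genotypes. After subtraction of each genotype mean the closest genes were others, among them Sik1 for Fst (0.956), Slc16a6 for Gdf5 (0.906), Hace1 for Tgfb2 (0.972), Fem1b for Mstn (0.963) and Tmem135 for Inhba (0.877).

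For this list and those that follow, the share over all tested genes was 7.7% called higher and 5.99% called lower. Among 25 other ligand genes of the family, 13 were tested, 2 were higher and 1 was lower. Those called higher were Gdf11 and Inha, and the gene called lower was Bmp8a (log2 difference -0.94, SE 0.17, limma adjusted p = 0.00235), which encodes a BMP and has a close copy, Bmp8b, under the expression limit, so that reads can be split between them. Gdf1, Gdf7 and Inhbc were at 0 in all mice, and 9 genes, Bmp8b among them, lay under the expression limit.

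Of 14 receptor genes, all tested, 1 was higher and 3 were lower, with a median difference of 0.035 (-0.0072 without wild-type mouse 3). Amhr2, the type II receptor of anti-Müllerian hormone, rose by 0.71 on the log2 scale (SE 0.10, limma adjusted p = 3.7e-04), with 9.38 to 9.62 in knock-out and 8.63 to 9.06 in wild-type mice. The gene of its ligand, Amh, lay under the expression limit, which applies to the mean over all mice. Acvr1b, a type I receptor of myostatin and activins, fell by 0.49 (SE 0.15, limma adjusted p = 0.0469). This call was held in only 6 of 18 alternative fits, and knock-out mouse 3 (10.42) lay within the wild-type range of 10.13 to 10.75. The main type II receptor of myostatin, Acvr2b (log2 difference -0.18, adjusted p = 0.304), the TGF-beta receptor Tgfbr2 (0.21, adjusted p = 0.275) and the GDF5 receptor Bmpr1b (-0.04, adjusted p = 0.896; all limma) did not pass.

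The remaining calls among receptors were Eng (-0.80, SE 0.13, limma adjusted p = 0.0011) and Acvrl1 (-0.53, SE 0.13, limma adjusted p = 0.0192), an accessory and a type I receptor of endothelial cells, and the call of Acvrl1 was held in 16 of 18 alternative fits. Endothelial markers moved with them. Of 10 endothelial markers, all tested and none at 0, 6 were lower and none higher, with a median of -0.45 (without wild-type mouse 3, 5 were lower), and Flt1, Vwf and Cdh5 had the smallest adjusted p. The summed level of this list ranged from 12.40 to 12.73 (log2) in knock-out and from 12.79 to 13.09 in wild-type mice. The part of endothelial cells in the values of Eng and Acvrl1 was not tested.

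Inside the cell, Smad3, which carries signals of myostatin, activins and TGF-betas, fell, and Smad1, which carries BMP signals, rose. Smad3 ranged from 11.26 to 11.59 in knock-out and from 11.94 to 12.26 in wild-type mice, a log2 difference of -0.68 (SE 0.09, limma adjusted p = 3.0e-04). Smad1 ranged from 8.42 to 8.58 in knock-out and from 7.35 to 8.21 in wild-type mice (0.57, SE 0.15, limma adjusted p = 0.0213), and wild-type mouse 3 was its lowest. The call of Smad1 was held in 14 of 18 alternative fits. Smad2, Smad4 and Smad5 did not pass, and Smad9 was under the limit. Of 9 intracellular inhibitors, all tested, 2 were lower. Pmepa1, which sequesters SMAD2 and SMAD3, fell by 0.55 (SE 0.09, limma adjusted p = 9.0e-04), and the ubiquitin ligase gene Smurf2 fell by 0.37 (SE 0.11, limma adjusted p = 0.0385), a call held in 8 of 18 alternative fits. The inhibitory Smad6 and Smad7 did not pass.

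The secreted antagonists other than the members numbered 15. Of these, 11 were tested, 1 was higher and 1 lower (1 and 2 without wild-type mouse 3), beside 7.7% and 5.99% of all tested genes. Counts this small do not set the list apart from all tested genes. Twsg1, whose product modulates BMP binding, rose by 0.51 on the log2 scale (SE 0.13, limma adjusted p = 0.0169). Wfikkn2, which encodes an antagonist of myostatin and GDF11, was 8.55 to 8.69 in knock-out and 8.81 to 9.94 in wild-type mice. All its knock-out values lay below the wild-type values, yet the difference of -0.56 did not pass (limma adjusted p = 0.0534). Without wild-type mouse 3, the highest, Wfikkn2 differed by -0.36 (limma adjusted p = 0.0121). Noggin (Nog, -0.21, limma adjusted p = 0.369) did not pass, and Grem1 lay under the expression limit.

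Of 16 genes for the storage and activation of latent ligands, 13 were tested, 5 were higher and 2 lower (4 and 2 without wild-type mouse 3). Ltbp2 (1.31, SE 0.16, limma adjusted p = 1.1e-04) and Ltbp1 (0.56, SE 0.10, limma adjusted p = 0.00142), genes of the latent TGF-beta binding protein family, and Itgb6 (1.14, SE 0.19, limma adjusted p = 0.00121), a subunit of an integrin that activates latent TGF-beta, rose without overlap between the genotypes. Lrrc32 and Furin, which present and cleave ligand precursors, were the genes called lower.

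**Figure D3:**
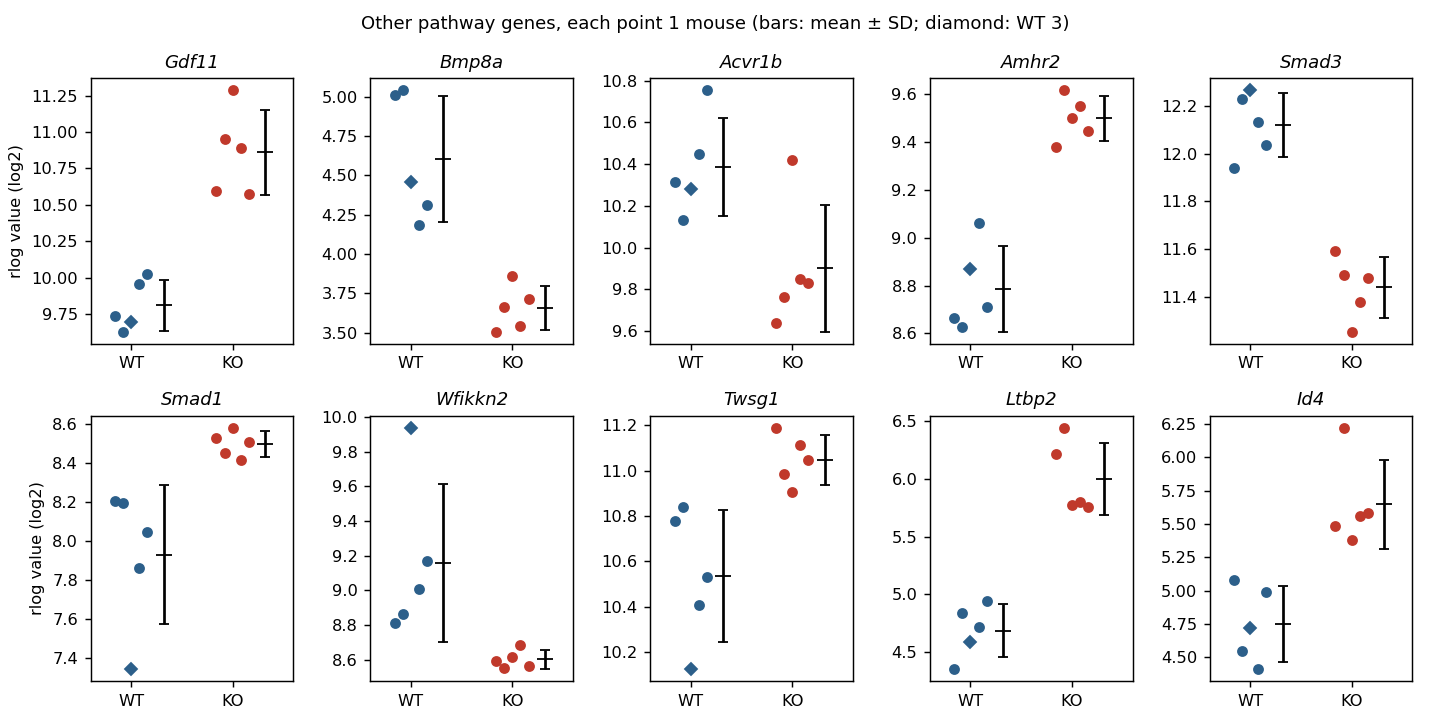
Values in each mouse of 10 pathway genes that are not members, with the rlog value (log2) on the vertical axis and wild-type (WT, blue) and desmin knock-out (KO, red) mice side by side. Points are mice, bars the mean ± SD of 5 mice, and the diamond is wild-type mouse 3. Bmp8a and Gdf11 separate the genotypes in opposite directions, while in Acvr1b knock-out mouse 3 (10.42) lies among the wild-type mice. The vertical axes differ between panels and do not start at 0.

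Genes known to respond to TGF-beta were often higher. Of 16 such genes, all tested, 9 were higher and 1 was lower, with a median difference of 0.51. The list was drawn up with earlier results of these data known, so it is no independent evidence. Ltbp2 was counted as higher both here and among the genes for storage and activation. Timp1 (1.58) and Postn (1.95), genes of matrix remodelling, rose without overlap. The exception was Pmepa1, given above, and Smad7, Skil, Acta2, Tagln, Tgfbi and Eln did not pass. Without wild-type mouse 3 the counts were 8 higher and 1 lower. Tendon markers and some fibroblast markers were also higher, and Col1a1, Col1a2 and Col3a1 belong to the response list and to the fibroblast markers. Of 12 fibroblast markers, all tested and none at 0, 5 were higher and 1, Ly6a, was lower (median 0.27). Without wild-type mouse 3 these counts were 3 and 1 and the median 0.15. Their summed level ranged from 15.07 to 15.54 (log2) in knock-out and from 14.62 to 15.53 in wild-type mice. Of 7 tendon markers, all tested and none at 0, 4 were higher (Tnmd, Thbs4, Scx and Comp; median 0.77), with a summed level of 12.95 to 13.48 in knock-out and 11.90 to 12.92 in wild-type mice. The part of these cells in the values of the TGF-beta genes and their response genes was not tested.

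Among the genes known to respond to BMPs, 2 were called higher and none lower, beside 7.7% and 5.99% of all tested genes. Of 10 genes, 9 were tested, and Id4 (0.90, SE 0.18, limma adjusted p = 0.00392) and Id2 (0.59, SE 0.13, limma adjusted p = 0.00786), inhibitors of basic helix-loop-helix factors, rose without overlap. Id1, the most widely used BMP response gene, did not pass (-0.20, limma adjusted p = 0.232), and the median of the list was 0.11 (0.015 without wild-type mouse 3). Without that mouse all knock-out values of Id1 lay below the wild-type values, with a difference of -0.25 (limma adjusted p = 0.0808). Its adjusted p was under 0.05 in 1 of 18 alternative fits. Of 10 genes that set muscle size downstream of these signals, all tested, the kinase gene Akt1 was called lower (-0.61, SE 0.15, limma adjusted p = 0.0151) and none higher, and without wild-type mouse 3 the counts were 1 higher and 1 lower. The atrophy ligase genes Fbxo32 (-0.17, adjusted p = 0.523) and Fbxo30 (0.37, adjusted p = 0.219; both limma), of which the latter is known to be held down by BMP signals, did not pass.

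Genes known to change with denervation, the setting in which Gdf5 is known to rise, were counted beside it. Of 16 such genes, all tested, 10 were higher and 1, Dach2, was lower, with a median difference of 0.79, and without wild-type mouse 3 the counts were 11 and 1. The list was not divided by the direction known from denervation, so the lower value of Dach2 is not by itself an exception. Sln (3.17), Cdkn1a (1.48) and Runx1 (1.79) had the smallest adjusted p, and the list was drawn up with earlier results of the same mice known, so that it is no independent evidence. The study describes the acetylcholine receptor gamma subunit as a marker of fiber regeneration, and its gene, Chrng, was among those called higher. The part of denervation or of regeneration in the values of Gdf5 was not tested. The histone deacetylase gene Hdac4 (0.09, adjusted p = 0.588) and the calcium channel subunit gene Cacnb1 (-0.23, adjusted p = 0.389; both limma), known as a regulator of Gdf5 after denervation, did not pass. Without wild-type mouse 3 the difference of Cacnb1 was -0.05, and values per gene do not separate its transcript isoforms.

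**Figure D4:**
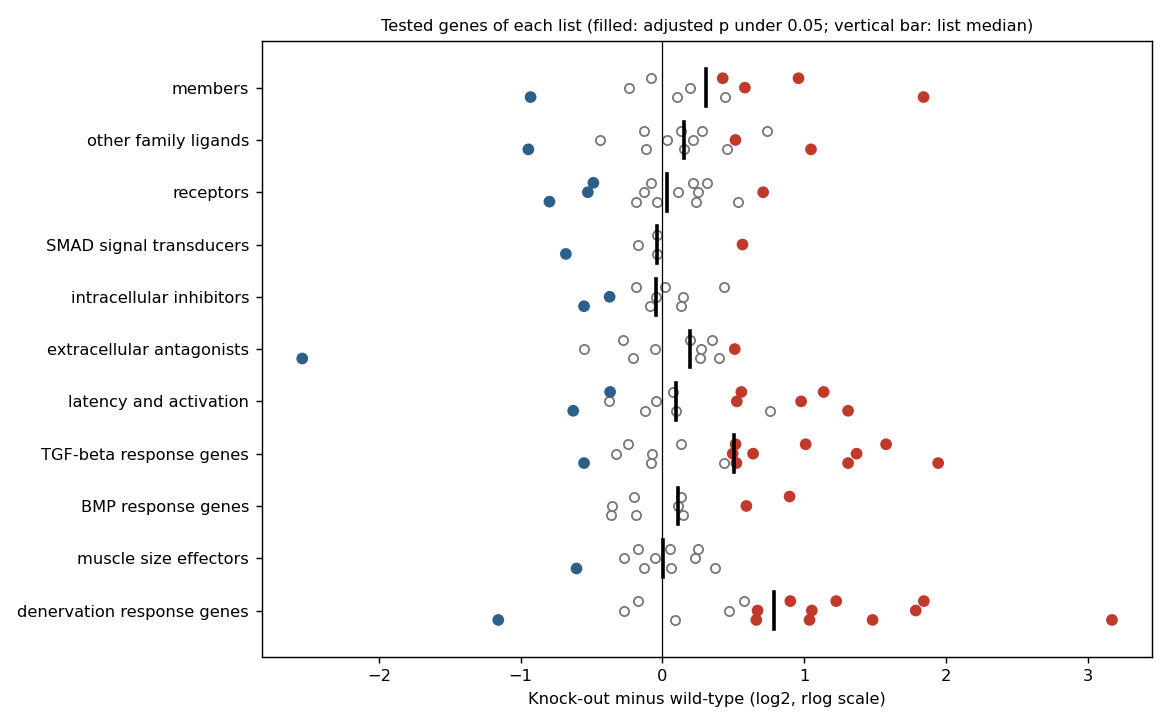
Knock-out minus wild-type difference (log2, rlog scale, horizontal axis) of each tested gene in the 11 gene lists (vertical axis). Filled points have an adjusted p under 0.05 (red higher, blue lower), open points do not, and the vertical bar is the median of the list. The medians of the TGF-beta response genes (0.51) and the denervation response genes (0.79) lie farthest to the right.

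Markers of further cell types were counted in the same way, beside 7.7% called higher and 5.99% called lower among all tested genes. Counts of 1 or 2 in lists this short say little about a cell type. Of 12 macrophage markers and 7 adipocyte markers, all tested, none was called (limma). Smooth muscle and pericyte markers gave 1 higher and 1 lower of 10, Schwann cell markers 2 higher of 9 tested, and satellite cell markers 1 higher of 9, Chodl (2 without wild-type mouse 3). Erythroid markers gave 2 lower of 5 (3 without wild-type mouse 3). Of 12 skeletal muscle markers, the fast-fiber genes Myh4 (-0.71) and Actn3 (-0.97) were lower and Myh2 (0.77) was higher, with a median of -0.41. Without wild-type mouse 3 the counts were 2 lower and 2 higher and the median -0.19. Of 18 alternative fits, the call was held in 6 for Myh4, 15 for Actn3 and 14 for Myh2. The summed level of these markers ranged from 22.27 to 22.46 (log2) in knock-out and from 22.49 to 23.41 in wild-type mice, and none was at 0. The part of fiber type in the values of Mstn, a gene of the fibers, was not tested.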

How the data were processed

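Gene counts were made by the authors with featureCounts (mm10 annotation) and passed to DESeq2. The submitters' processing notes list cutadapt 2.5, STAR 2.5.4a and Subread 1.6.1 on GRCm38. The values the authors deposited are rlog values on a log2 scale, 1 column for each of 10 mice, scaled for library size and shrunken by DESeq2. No counts were used here, so a pseudocount and a depth do not apply. The test was limma 3.58.1 under R 4.3.3 on the 14289 genes whose mean over the 10 mice reached log2(10), with a trended prior variance (eBayes), two-sided p-values and Benjamini-Hochberg adjustment. Exact permutation tests of single genes were two-sided over all 252 assignments.

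Symbols were found for 54079 of 54232 genes, and positions come from GENCODE on GRCm38. Promoters come from RefSeq (GRCm38.p6). P-values measure the spread between these 10 mice. The members, the gene lists and the tests were chosen with earlier results of these data known. The genes named were Des, the members, up to 3 genes of each list with the smallest adjusted p under 0.05, fixed partners of the members, and the 3 genes most parallel to each called member. Some genes and sequences that this rule names are not reported here. The other genes named were chosen after their values were seen. Alternatives were leaving out each mouse, weighting the samples, adding the replicate number as a block or the Y-linked transcripts as a covariate, a prior variance without trend, centring on medians, quantile normalization, testing with no limit or above log2(50), and calling at an adjusted p under 0.01. List counts without wild-type mouse 3 were added once the data had been seen.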

Additional observations from a re-analysis of the deposited data

Results flagged for a closer look

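For each of 66 genes (the members, Des and the genes named by rule) the 5 mice of each genotype were searched for a mouse far from the other 4. Of 132 such groups, 17 had one, where chance gives about 6.6, and in 8 of the 17 it was wild-type mouse 3. Knock-out mouse 3 was the next most frequent. The chance number holds for normally spread values, and the groups are not independent because they come from the same mice and many genes were picked for their values. Among the members there were 2 in 20 groups. Tgfb3 in wild-type mouse 3 (11.07) lay far above the other wild-type mice, and Tgfb1 in knock-out mouse 3 (6.41) lay far below the other knock-out mice.

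The same wild-type mouse was also the outlying high value for Des (17.74), Cacnb1 (13.38), Acvrl1 (9.09), Akt1 (11.66), Actn3 (19.34), Alas2 (8.28) and Hbb-bs (12.44), a globin gene with a near-identical copy. Knock-out mouse 3 lay above the other knock-out mice for Acvr1b (10.42), Nog (6.42), Hdac4 (10.75) and Egr2 (6.06) and below them for Col1a2 (11.33) and Kcnj8 (7.62). Knock-out mouse 5 was low for Acvr2b (6.34), and knock-out mouse 2 was high for Id4 (6.22).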

How the results depend on the processing

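Fst, Gdf5, Tgfb2 and Mstn kept their direction and an adjusted p under 0.05 (limma) in each alternative in which they were tested, 18 for each but Gdf5, which had 17 because it lay under the limit of log2(50). Over the alternatives the differences ranged from 1.56 to 1.96 for Fst, from 0.85 to 1.03 for Gdf5, from 0.44 to 0.65 for Tgfb2 and from -1.16 to -0.74 for Mstn. Inhba lost its call in 13 of 17, Tgfb3 gained one in 4 of 18 and Tgfb1 in 1 of 18. The difference of Fstl3, not called in any fit, turned positive (0.023) with Y-linked transcripts as a covariate, and the cause was not tested. Members called higher numbered 2 under the limit of log2(50), where 3 low members were not tested, and 3 to 4 when each mouse was left out; 1 was called lower each time. Of all genes, 4220 were called with sample weights and 994 at an adjusted p under 0.01, against 1956, and 1399 to 2494 when each mouse was left out. With the replicate number as a block, 1579 genes, 3 members higher and 1 lower were called. Mice of the same number did not deviate together (correlations from -0.22 to 0.07), and 0 of 5 knock-out mice correlated best with their own number. The pairing was therefore not used, although a shared factor smaller than the spread between mice would not be seen in this check. Library depth is unknown, and rlog shrinkage limits what low genes such as Gdf5, Inhba and Inhbb can show.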
